A study of Mus musculus with 4 samples.

Results

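The authors listed genomic regions that they associated with Ring1b peaks of cells with wild-type histone H3.3. Of these, 574 of moderate width had much lower Ring1b values in cells with H3.3K36M. They were chosen by a fixed rule: a width of 1200 to 8000 bp, values of both libraries summing to at least 3 RPM (reads scaled to sequencing depth, with no division by width), and a ratio (K36M + 0.1)/(WT + 0.1) of at most 0.4 on the RPM scale. They are called reduced regions here. They made up 9.01% of the 6371 listed regions and 20.5% of the 2802 regions that met the limits of width and summed value (mid-width regions). The 2228 other mid-width regions, with a ratio above 0.4, served for comparison, and 301 of these had a ratio of at least 1. The values of both Ring1b libraries chose the reduced regions, so their lower K36M values are a description and not a finding.

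The assay was ChIP-seq, the sequencing of DNA pulled down with an antibody to Ring1b, and the cells were C3H10T1/2, a line of mesenchymal progenitors from mouse embryo. Both groups stably expressed H3.3 with a FLAG-HA tag, either wild type (WT) or K36M, with lysine replaced by methionine at the residue that carries H3K36 methylation. They were used at the same range of passages, and the labels do not say whether either is a single clone. Since the regions follow peaks of the WT cells, a site with Ring1b in K36M cells only may not be among them. Each form of H3.3 had 1 Ring1b library and 1 input library, of which the input was not analysed here. The comparison addresses how the distribution of Ring1b over the genome differs between these cells. A single library per form leaves differences with no check by replicates, no test is given, and intervals are 95% counting intervals (exact, Clopper-Pearson) that cover counting error only.

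Ring1b is the catalytic subunit of Polycomb repressive complex 1 (PRC1) and places monoubiquitin on histone H2A. PRC1 works beside PRC2, which methylates H3K27, and both are known for holding genes of development silent, often at CpG-rich promoters. Methylation of H3K36 hinders PRC2 on the same histone tail, and K36M blocks the enzymes that methylate H3K36. The table names no genes. The gene and promoter tables used here are on the assembly GRCm38 and the regions are on mm9, so no region is given a gene or a sequence, and coordinates are of mm9, counted from 1.

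Over the 574 reduced regions the values summed to 4586 RPM in WT against 1251 RPM in K36M and were thus lower by 3.67-fold (interval 3.63 to 3.71). WT reads in them came to 136901 and K36M reads to 39460, with medians of 205.5 and 61 reads per region. The median region held 6.88 RPM in WT, with a range of 2.21 to 32.9, and 1.93 RPM in K36M, with a range of 0.444 to 9.38. The other mid-width regions were 1.40-fold lower in sum, from 12455 to 8919 RPM. All 6371 listed regions together were 1.58-fold lower, from 36030 to 22841 RPM, with a median ratio of 0.636. Listing regions by peaks of the WT cells favours lower values in K36M. These sums, and the net differences below, are therefore no measure of a change over the genome. Values scaled to depth do not separate a loss at single regions from a difference in enrichment between the libraries, which was not tested. The reduced regions covered 2.09 Mb, or 7.19% of the length of all listed regions without 1 region over 1 Mb wide. They held 12.7% of the summed WT values and 5.48% of the summed K36M values. They carried 25.3% of the net difference of 13189 RPM between the libraries over the whole table, and 48.5% of the net difference over the mid-width regions.

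**Figure D1:**
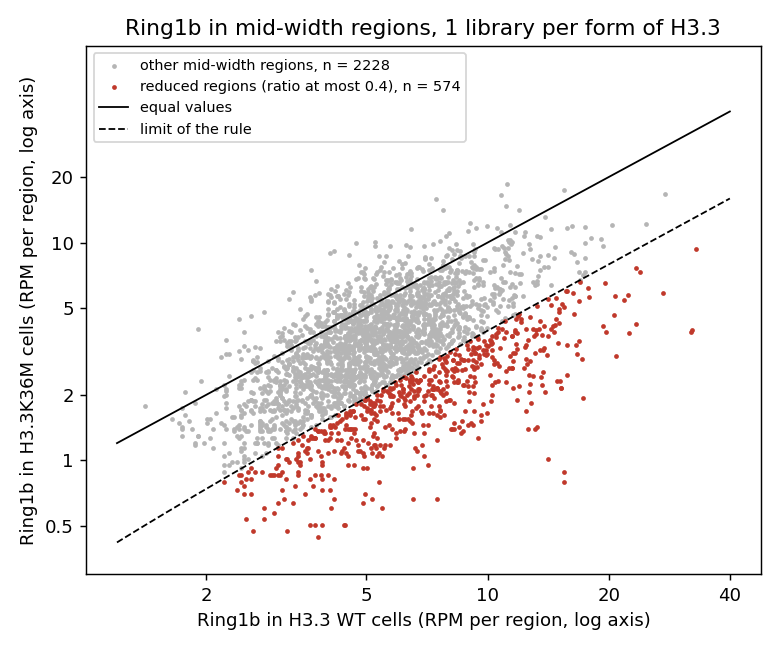
Ring1b values of the 2802 mid-width regions in H3.3 WT cells (x axis, RPM, log scale) and H3.3K36M cells (y axis, RPM, log scale), 1 point per region. The 574 reduced regions lie at or below the dashed limit of the rule, from 2.21 to 32.9 RPM in WT, and most of the 2228 other regions lie between that limit and the line of equal values.

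Per kilobase, the reduced regions stood above the other mid-width regions in WT cells and below them in K36M cells. Their median density was 2.13 RPM per kb in WT, with quartiles of 1.55 and 3.02, and 0.564 RPM per kb in K36M, with quartiles of 0.438 and 0.789. In the other mid-width regions the median was 1.23 RPM per kb in WT cells and 0.863 in K36M. Regions with a ratio of at least 1 had the lowest WT median of these classes, 1.10 RPM per kb, and the highest K36M median, 1.31. Densities were not used by the rule as such, but they come from the same values as the ratio. Counts include background reads, whose level was not measured here because input values were not analysed.

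**Figure D2:**
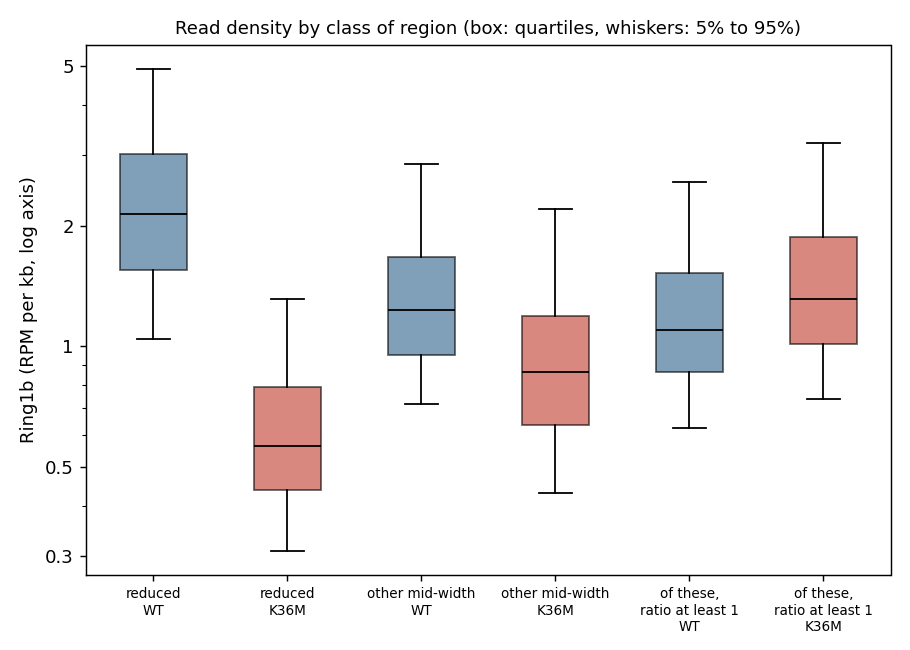
Read density (RPM per kb, log axis) of the reduced regions, the other mid-width regions and those of the latter with a ratio of at least 1, in WT (blue) and K36M (red). Boxes are quartiles over regions with the median as a line, and whiskers run from 5% to 95%. The medians of the reduced regions are 2.13 (WT) and 0.564 (K36M).

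The depth of the reduction varied within the class. The median of the single folds was 3.41, the quartiles were 2.93-fold and 4.37-fold, and the range was 2.53-fold to 19.5-fold lower. At least 4-fold lower values were found at 185 reduced regions (6.60% of all mid-width regions) and at least 8-fold lower values at 15 (0.535% of all mid-width regions). All 574 had a counting interval wholly below 1, as at 72.0% of all mid-width regions. Since the rule used this ratio, nothing is read from these counts. At 307 of the 574 the interval also lay below 0.4, and at 267 it included 0.4. Among the other mid-width regions the interval included 0.4 at 535 and lay above it at 1693, so that counting error alone leaves 802 of the 2802 regions on an undecided side of the limit.

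Values changed little across the limit itself. Just inside it lay chromosome 3, 30154401 to 30161400, with 12.0 RPM in WT against 4.72 RPM in K36M, a ratio of 0.39996. The next regions inside were at chromosome 12, 111033401 to 111037800 (a ratio of 0.399, with 4.34 RPM left in K36M), and chromosome 12, 54355401 to 54358400 (3.02 and 1.14 RPM). Just outside lay chromosome 18, 8644201 to 8646400, with 4.82 and 1.87 RPM and a ratio of 0.40014. It was followed by chromosome 7, 71166201 to 71174000 (6.57 and 2.57 RPM), and chromosome 2, 102826201 to 102828200 (4.19 and 1.62 RPM). These 6 regions had counting intervals that included 0.4, and the limit separates neighbours on a continuous scale.

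The lowest ratio of the class, 0.0573, was at chromosome 2, 73113201 to 73114400. This 1200-bp region held 15.5 RPM in WT (462 reads) and 0.792 RPM in K36M (25 reads), a 19.5-fold lower value (interval 13.1 to 30.5). Its WT density of 12.9 RPM per kb was 6.04 times the class median, while its K36M density was 0.660 against a class median of 0.564. A 400-bp region touched it on the left, with 3.18 RPM in WT against 0.285 RPM in K36M, 11.2-fold lower. Beyond this lay another reduced region, chromosome 2, 73107401 to 73112800, which was 3.63-fold lower, from 7.60 to 2.09 RPM. Along this stretch of 7000 bp the WT density ran from 1.41 to 7.96 to 12.9 RPM per kb, and the K36M density from 0.387 to 0.713 to 0.660. The WT density spanned a wider range over the 3 adjoining regions than the K36M density did. The stretch was chosen for holding the lowest ratio, which favours this, so nothing is read from it.

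The next 3 in order lay on chromosomes 2, 6 and 4. At chromosome 2, 146914001 to 146915200, the value was 17.5-fold lower and WT density was the highest of all reduced regions, 12.9 RPM per kb. It stood in a series of touching regions in which the reduced regions on either side, at 146912201 and 146915601, were 7.11-fold and 3.22-fold lower. Their WT densities were 4.67 and 1.55 RPM per kb, and K36M densities over these 3 reduced regions were 0.657, 0.740 and 0.481. Chromosome 6, 54287001 to 54289000, was 14.0-fold lower and touched no other region. Chromosome 4, 93723201 to 93724400, was 11.2-fold lower, from 7.47 RPM to 0.666 RPM (interval 7.16 to 18.5).

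The remaining 6 of the 10 lowest ratios were 8.21-fold to 9.81-fold lower. Among them, the 1600-bp stretch from 73983201 to 73984800 on chromosome 12 held 6.53 RPM in WT against 0.666 RPM in K36M, from 195 and 21 reads (9.81-fold lower, interval 6.24 to 16.2). The region at chromosome 9, 31713801 to 31721800, was the widest of the 10, at 8000 bp, and had the lowest K36M density of them, 0.242 RPM per kb, against 2.15 in WT. At chromosome 1, 55948401 to 55952600, the nearest other reduced region was 3104 kb away, so that a deep reduction was also found far from any other. At chromosome 14, 104857401 to 104864400, which was 8.21-fold lower, that distance was 2963 kb.

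High WT density and deep reduction overlapped in part. Both use the same WT value, which favours overlap, so nothing is read from it. Each list below holds 10 of the 574 reduced regions. Of the 10 reduced regions with the highest WT density, 4 were also among the 10 with the lowest ratio, 5 were 1200 bp wide and 9 touched another listed region. Chromosome 4, 117165401 to 117166600, had 10.4 RPM per kb in WT cells and 1.40 in K36M, 7.42-fold lower (interval 5.55 to 10.1). Chromosome 19, 24972401 to 24974000, had 9.51 and 1.35 RPM per kb and was 7.06-fold lower. The smallest fold of these 10 was 4.25 (interval 3.34 to 5.47), above the class median of 3.41. It was at chromosome 13, 103002201 to 103003400, where the density was 9.44 RPM per kb in WT cells, and still 2.22 in K36M. Chromosome 4, 8573801 to 8575800, was 5.43-fold lower and chromosome 10, 110448401 to 110449600, was 6.47-fold lower.

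The 6 reduced regions with the highest WT values, which are not divided by width, spanned 3.07-fold to 8.21-fold. The highest, chromosome 1, 63301601 to 63307600, held 32.9 RPM in WT against 9.38 RPM in K36M. This K36M value was the largest of the class, and the 3.50-fold reduction (interval 3.07 to 4.00) was near the class median. Chromosome 2, 73612401 to 73616000, held 32.1 and 3.96 RPM, and chromosome 14, 104857401 to 104864400, held 32.0 and 3.90 RPM. With nearly the same WT value as the first region, they kept less than it did by an amount beyond counting error, since their intervals began at 6.72-fold and 6.79-fold. Chromosome 17, 84287401 to 84294400, was 4.63-fold lower, chromosome 4, 22410401 to 22417400, was 3.29-fold lower and chromosome 11, 96037801 to 96045000, was 3.07-fold lower.

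The region at chromosome 2, 73612401, also showed how much the fold could change between adjoining regions. Its right side continued through a 400-bp region, 7.78-fold lower, into a reduced region at 73616401 that was 4.53-fold lower. To its left, past another 400-bp region that was 7.61-fold lower, the 5000-bp region at 73607001 to 73612000 held 4.09 RPM in WT against 2.47 RPM in K36M. That is 1.65-fold lower (interval 1.23 to 2.23), with WT and K36M densities of 0.817 and 0.495 RPM per kb. Its K36M density was close to the 0.442 of the reduced region on the other side, whose WT density was 2.00.

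Reduced regions were narrower than the other mid-width regions, with a median of 3400 bp against 4400 bp. Of the 447 mid-width regions of 1200 to 2000 bp, 152 (34.0%) were reduced regions. The share was 24.8% at 2200 to 3000 bp, 17.9% at 3200 to 4000 bp, 20.7% at 4200 to 5000 bp, 13.1% at 5200 to 6000 bp, 14.4% at 6200 to 7000 bp and 11.9% at 7200 to 8000 bp. WT density moved with width: in reduced regions its median was 3.01 RPM per kb in the narrowest of these classes and 1.51 in the widest, and in the other mid-width regions 2.09 and 0.899. In all 7 width classes the reduced regions had the higher WT median and the lower K36M median. A rule on the ratio of these same values favours that order, so nothing is read from it. When the mid-width regions were put into 5 equal classes of WT density, reduced regions made up 2.32%, 8.57%, 13.6%, 27.7% and 50.3% from the lowest to the highest. WT density shares its value with the ratio that chose the regions, and width differed between these classes (median 6000 bp in the lowest and 2200 bp in the highest), so their parts cannot be told apart.

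Some reduced regions adjoined other listed regions. Of the 574, 173 (30.1%) touched another listed region with no gap, against 16.7% of the other mid-width regions and 38.2% of all listed regions, and 13 touched one on both sides. Touching was thus more frequent than in other regions of this width but less frequent than in the table as a whole. No reduced region touched another one. The 164 regions that touched them were 800 bp wide or less, and 144 were exactly 400 bp wide. In 22 places a 400-bp region lay between a pair of reduced regions and touched both. These short partners were outside the width limits and so not chosen by the rule. Their median log2 ratio was -2.15, 163 of 164 were lower in K36M, and 138 (84.1%) had a ratio of at most 0.4. The share was 23.3% of all 3569 regions outside the limits, but these include regions wider than 8000 bp. Among regions narrower than 1200 bp, with dense runs (defined below) left out, it was 85.6% of the 104 within 10 kb but not touching. It was 27.9% of the 904 beyond 1000 kb. Over the 186 touching pairs the median WT density was 2.64 RPM per kb in the reduced region and 5.53 in the short partner. In K36M these medians were 0.668 and 1.03. The partner had the higher density in 155 pairs in WT and in 144 pairs in K36M. How the table came to be split into such touching pieces is not given in the sources used here.

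Reduced regions often lay near each other. Another reduced region lay within 50 kb of 185 of the 574 (32.2%), and one lay within 50 kb of 187 of the 2228 other mid-width regions (8.39%) and of 3 of the 301 with a ratio of at least 1 (0.997%). Within 200 kb these shares were 46.2%, 18.4% and 9.30%. Part of the grouping lies in pieces of single stretches, since 24 stretches of touching regions held more than 1 reduced region. A gap of at most 2 kb to another reduced region was found at 74 of the 574 (12.9%). At the other end, 181 reduced regions (31.5%) had no other reduced region within 1 Mb, against 56.2% of the other mid-width regions and 55.7% of all listed regions. Joined across gaps of up to 10 kb, the class formed 514 loci, 466 of them of a single region. Joined across gaps of up to 50 kb it formed 463 loci, of which 389 held 1 region, 52 held 2 and 22 held 3 or more. The median gap to the nearest listed region of any kind was 6600 bp, against 20400 bp for the other mid-width regions and 4200 bp for all listed regions.

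Isolated reduced regions were found as well as grouped ones. The 75 reduced regions with no listed region within 200 kb had a median log2 ratio of -1.64 and were 3.56-fold lower in sum, and the 8 of them with none within 1000 kb stood at -1.73 and 4.76-fold. The 100 with the nearest listed region at 50 to 200 kb stood at -1.65 and 3.41-fold. The 226 with a listed region within 50 kb but not touching stood at -1.69 and 3.53-fold. The 173 that touched another region stood at -1.85 and 4.03-fold, and their median WT density of 2.61 RPM per kb was above the 1.93 of those with none within 200 kb. The summed fold did not follow the order of the gaps. The 8 include chromosome 14, 104857401 to 104864400, with 32.0 RPM in WT against 3.90 RPM in K36M, against a median WT value of 6.05 RPM. This region weighs heavily on their sum and is also among the 75. The median log2 ratios of the classes that do not overlap did follow the gap, from -1.85 when touching to -1.64 beyond 200 kb. These medians are over regions with ratios at or below 0.4 and can vary only in that range.

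In the 5 loci with most reduced regions, joined across 50 kb, the other listed regions were less reduced in sum than the reduced regions at 2 loci and more reduced at 3. Of the latter, the loci at chromosome 15, 54269601, and chromosome 1, 63296001, had only 1 other listed region each. At the one on chromosome 3, the fold of the others, 5.84, lay within the interval of the reduced regions (4.96 to 6.34). The tally thus rests on little. Mid-width regions among the others are there because their ratio was above 0.4. This favours a smaller fold of the others, so nothing is read from the order. At chromosome 15, 102731801 to 102889800, 6 reduced regions summed to 76.1 RPM in WT against 23.2 RPM in K36M, 3.28-fold lower (interval 3.02 to 3.57). The other 15 listed regions in the same 158 kb were 2.72-fold lower in sum, from 75.9 to 27.9 RPM, and 11 of them had a ratio of at most 0.4. All 21 counting intervals of this locus lay below 1. The sharpest signal was a 400-bp region at 102859801 with 21.4 RPM per kb in WT cells and 4.52 in K36M. It touched the reduced region at 102856601 to 102859800, which was 3.61-fold lower. The regions at 102814601 (7400 bp) and 102843201 (10000 bp) were 1.98-fold and 2.00-fold lower at WT densities of 1.30 and 1.14 RPM per kb.

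At chromosome 15, 54269601 to 54363800, 5 reduced regions were spread over 94.2 kb with 1 other listed region among them, which was 5.87-fold lower. They summed to 47.2 RPM in WT against 13.5 RPM in K36M, 3.49-fold lower (interval 3.13 to 3.90). The middle one, 54318001 to 54321200, had the highest density (4.39 and 0.951 RPM per kb) and was 4.61-fold lower, and the last, 54361001 to 54363800, was 2.75-fold lower. At chromosome 1, 63296001 to 63328000, 4 reduced regions were 3.45-fold lower together, from 53.3 to 15.4 RPM, and their single folds ran from 2.97 to 3.93. The 1 other listed region between them was 4.58-fold lower. At chromosome 11, 96136001 to 96204600, 4 reduced regions were 3.55-fold lower, from 53.2 to 15.0 RPM. There the 6 other regions were 2.33-fold lower. They included a 5800-bp region at 96159601 that was 1.67-fold lower, from 7.74 to 4.63 RPM. This region is of mid width, so its ratio of 0.603 placed it among the others.

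**Figure D3:**
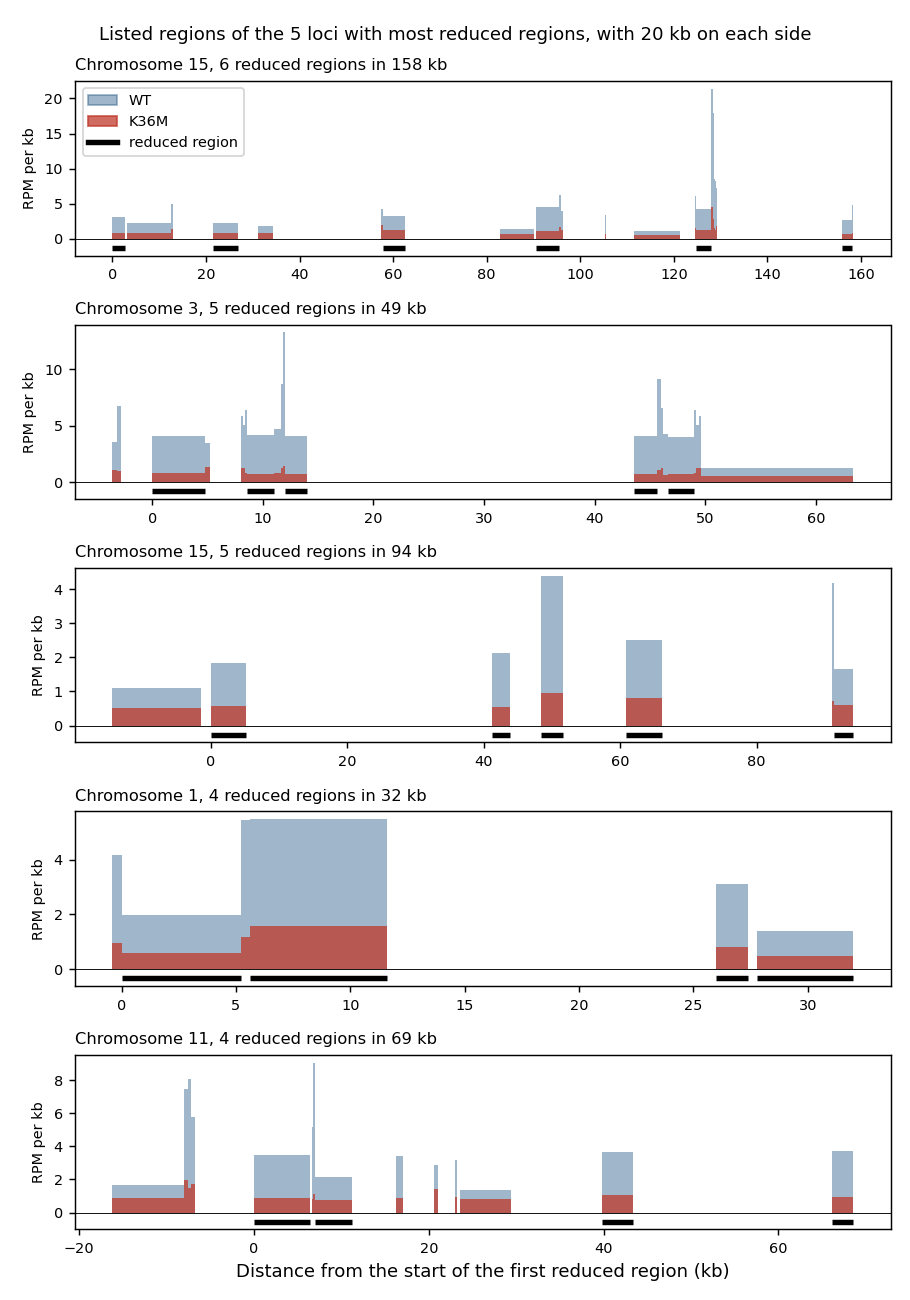
Read density (RPM per kb) of every listed region in the 5 loci with most reduced regions and 20 kb on each side, in WT (blue) and K36M (red, drawn over the WT bar), against the distance in kb from the start of the first reduced region. Black bars mark reduced regions. K36M bars stay below WT bars throughout, and the highest WT bar of the first panel is 21.4 RPM per kb.

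The remaining locus of the 5, at chromosome 3, 96142201 to 96191200, held 5 reduced regions summing to 55.6 RPM in WT against 9.92 RPM in K36M, 5.60-fold lower (interval 4.96 to 6.34). The 10 other listed regions were 5.84-fold lower in sum, and 9 of them had a ratio of at most 0.4. Its listed regions repeated themselves in mirrored order. The 3 regions of 200 bp from 96150201 to 96150800 and the 3 from 96191201 to 96191800, read in the opposite direction, had the same WT and K36M reads in each position. No other run of at least 2 consecutive regions in the table repeated the widths and both read counts of another run on its chromosome, in either order. The 6000-bp stretch from 96150201 held 858 WT and 150 K36M reads, and the one from 96185801 held 834 and 146. Each held a pair of reduced regions, of 2400 and 2000 bp. Whether reads are shared between these stretches was not tested, and they may not be separate measurements. Without the second stretch, 3 reduced regions were left, which were 5.47-fold lower (interval 4.73 to 6.35).

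Across gaps of up to 200 kb, the locus with most reduced regions was at chromosome 11, 111237801 to 111823200, and was singled out after its values were seen. Its 9 reduced regions, 2000 to 4800 bp wide, were spaced over 585.4 kb and summed to 82.3 RPM in WT against 19.5 RPM in K36M, 4.22-fold lower (interval 3.86 to 4.62). The single folds ran from 2.69, at 111646801 to 111651600, to 9.03, at 111607201 to 111610200. The next deepest were 6.39-fold at 111820201, 5.63-fold at 111532401 and 5.46-fold at 111237801. The region at 111548401, 13.4 kb to the right of the one at 111532401, had nearly the same WT density (5.24 against 5.22 RPM per kb) but a K36M density of 1.90 against 0.927. Its fold of 2.76 (interval 2.23 to 3.43) lay outside the interval of its neighbour, which was 4.40 to 7.29. The other 7 listed regions of this locus were 2.06-fold lower in sum, and 2 of them had a ratio of at most 0.4. Any mid-width regions among these 7 have ratios above 0.4 by the rule, which favours a smaller fold.

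Listed regions that the rule could not choose, because of their width or summed value, had lower ratios the nearer they lay to a reduced region. Among regions narrower than 1200 bp, with dense runs left out (10 or more listed regions in a row, each within 2000 bp of the next), the median log2 ratio was -2.15 for the 163 touching a reduced region. It was -1.94 for 104 within 10 kb, -1.68 for 79 at 10 to 50 kb, -1.39 for 152 at 50 to 200 kb, -0.89 for 378 at 200 to 1000 kb, and -0.71 for 904 farther away. The WT density of these classes did not follow the same order: its median was 5.19 RPM per kb within 10 kb and 4.94 beyond 1000 kb. In K36M the medians were 1.07 and 2.61 RPM per kb. Regions wider than 8000 bp went from -1.16 for 60 within 10 kb through -0.92, -0.68 and -0.51 to -0.44 for 655 beyond 1000 kb. All 60 of the nearest wide regions were lower in K36M, and 21 (35.0%) had a ratio of at most 0.4, against 5.34% of those beyond 1000 kb. With dense runs kept, the narrow regions beyond 1000 kb stood at -0.28. All of these regions were measured in the same 2 libraries, and regions near each other share chromatin and, where fragments cross a border, reads.

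**Figure D4:**
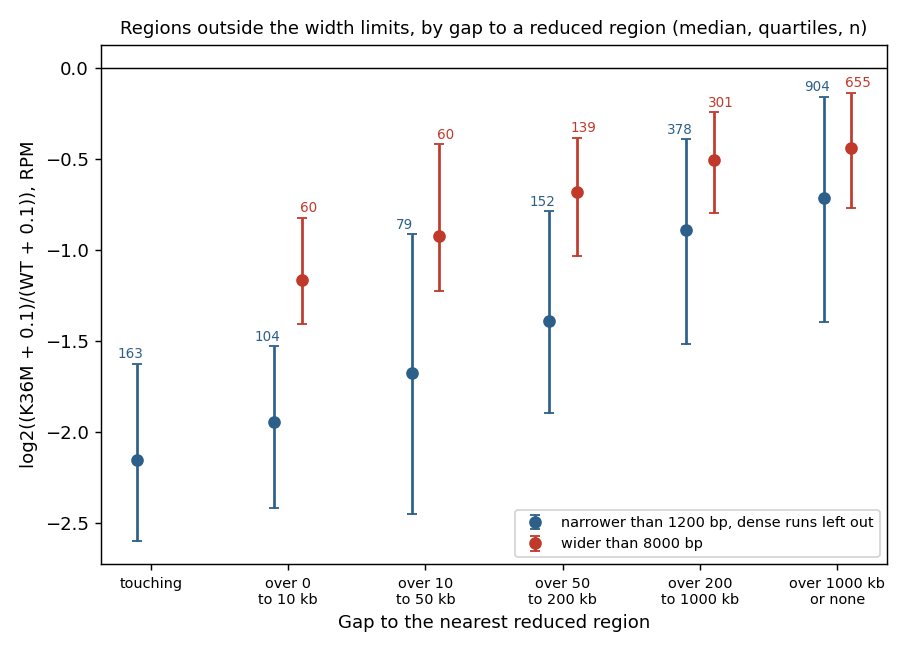
Median log2((K36M + 0.1)/(WT + 0.1)) of regions narrower than 1200 bp (blue, dense runs left out) and wider than 8000 bp (red) by the gap to the nearest reduced region. Bars span the quartiles over regions, and the number above each is the count of regions. The narrow regions run from -2.15 when touching to -0.71 beyond 1000 kb, and the wide ones from -1.16 to -0.44.

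Only 3 mid-width regions with a ratio of at least 1 lay within 50 kb of a reduced region. The nearest, chromosome 15, 99382601 to 99387600, was 1.6 kb from one and held 9.31 RPM in WT against 9.38 RPM in K36M, with WT at 0.993 times K36M (interval 0.840 to 1.17). At chromosome 2, 125126601 to 125129800, 24.6 kb away, the values were 6.30 and 7.16 RPM, and the interval of the WT to K36M ratio, 0.721 to 1.07, included 1. At chromosome 18, 16908201 to 16912600, 35.4 kb away, the value was higher in K36M by more than counting error, with 6.03 RPM in WT against 8.24 RPM in K36M (ratio of WT to K36M 0.732, interval 0.602 to 0.888). At these 3 places a reduced and a retained region lay within 35.4 kb of each other.

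Reduced regions were found on all 19 autosomes and the X chromosome. Their share of the mid-width regions was highest on chromosome 14 (32 of 114, 28.1%), followed by chromosome 1 (60 of 234, 25.6%) and chromosome 4 (36 of 143, 25.2%). It was lowest on the X chromosome (3 of 35, 8.57%), chromosome 5 (11 of 96, 11.5%) and chromosome 13 (28 of 206, 13.6%). Chromosomes 1 and 2 held 60 each. The summed fold can vary only above a floor that the ratio limit sets, so its spread is not compared with that of the share. It was 4.18 on chromosome 2, 4.12 on chromosome 14, 3.29 on chromosome 10 and 3.68 on chromosome 5, where few regions were reduced. On the X chromosome it was 2.74, over 3 regions. Grouping also differed, as 25 of the 60 on chromosome 2 and 17 of the 32 on chromosome 11 had another reduced region within 50 kb, against 2 of the 28 on chromosome 13. Neighbouring regions do not vary independently, so that these shares carry no error.

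**Figure D5:**
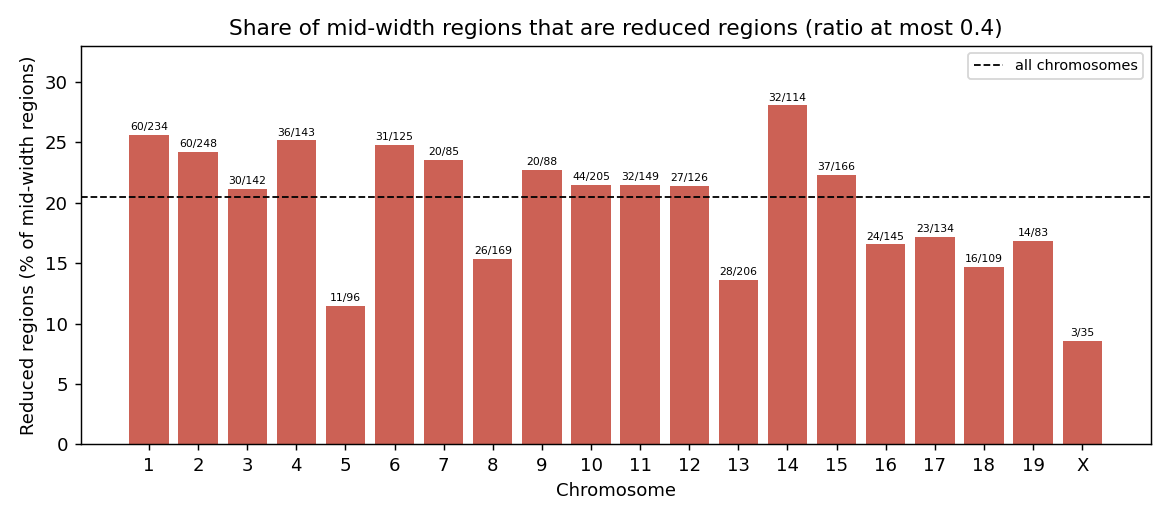
Share of the mid-width regions of each chromosome that are reduced regions (bars, percent), with the numbers of reduced and of all mid-width regions above each bar. The dashed line is the share over all chromosomes, 20.5%. The bars run from 8.57% on the X chromosome to 28.1% on chromosome 14.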

How the data were processed

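The build mm9 and the aligner Bowtie 1.0.0 are named by the submitters' processing notes. How peaks were called, duplicates treated and reads assigned to regions is not given in the sources used here. From the authors there is 1 deposited table of regions with 1 value per Ring1b library. Its columns are headed RPKM, but the deposited values are whole multiples of 0.0335 (WT) and 0.0317 (K36M) within 0.01 reads whatever the width, so they were treated as RPM and divided by these steps to give reads. Densities are RPM per kb of region width.

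The rule was applied to all regions with Python 3.11.15, pandas 2.3.3 and scipy 1.17.1. The interval of a fold is exact (Clopper-Pearson, 95%), conditional on the reads of both libraries, and was tested on simulated data. Without molecular identifiers, reads are not all independent molecules. Gaps run from border to border. Regions named are the 10 lowest ratios, the 10 highest WT densities, the 6 highest WT values, 3 on each side of the ratio limit and the 5 largest loci; regions beside them, retained regions near a reduced one and the largest 200-kb locus were added after their values were seen. The members and lists were chosen with earlier results of these data known. Gene lists and base composition were not used, since the reference tables are on another build. Alternatives changed the limits of the rule, the pseudocount and the joining gap.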

Additional observations from a re-analysis of the deposited data

How the results depend on the processing

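The number of reduced regions depended on the limits. It was 319 with a pseudocount of 1, 272 with a ratio of at most 0.3, 959 with a ratio of at most 0.5 and 351 with a width of 1200 to 4000 bp. With values per kb in the ratio and in the minimum, so that the minimum acts on density, it was 232, all of which are among the 574. The other 7 alternatives gave 460 to 611, including 580 with touching regions joined first and 572 without 1 of the mirrored stretches, which were both added after the data were seen. The summed fold of 3.67 was 3.41 as the median of single folds, 3.62 without the 10 highest WT values and 3.50 without regions that touch another (added later), each outside the counting interval of the sum. The share with another reduced region within 50 kb, 32.2%, was 18.8% for 10 kb and 46.2% for 200 kb. The number of loci, 514 when joined across 10 kb, was 574, 535 and 463 across 0, 2 and 50 kb, and 404 across 200 kb (added later). The median log2 ratio of regions outside the limits within 10 kb was -1.91 and lay between -1.91 and -1.64 under its alternatives. Alternatives on transcription starts and base composition were not run, since they need a genome of the build of the files. No paired analysis was possible because each form of H3.3 has 1 Ring1b library. Depth limits single regions: 802 mid-width regions have counting intervals, of the ratio without the pseudocount, that include 0.4.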

Other observations

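When touching regions were joined, the 574 reduced regions fell into 549 stretches, of which 401 were a single region and 24 held more than 1 reduced region. The ratio of the whole stretch was at most 0.4 in 541 of them and above 0.4 in 8. The highest stretch ratio, 0.613, was at chromosome 9, 60858601 to 60896400, where 1 reduced region is part of 37800 bp with 22.2 RPM in WT against 13.6 RPM in K36M. The other 7 lay between 0.404 and 0.461. In these 8 places the reduced region alone gives a lower ratio than the stretch around it, which follows from the limit of 0.4 itself.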
